A study of Danio rerio with 6 samples.

Results

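The genes described are 10 genes of blood coagulation and fibrinolysis in the zebrafish (Danio rerio), found by their symbol in the count table and present there as 10 of 14612 genes. They are the 3 fibrinogen chain genes fga, fgb and fgg, the protease genes f2, f7, f9b and f10, the inhibitor gene serpinc1, the plasminogen gene plg and the factor XIII gene f13a1a.1. f13a1a.1 was chosen for its difference between the exposed and control libraries. The other 9 were listed by function with results of these data already known. Their values in that comparison are therefore given as a description, without a p-value. RNA came from whole embryos taken 7 days after fertilization, and 33 to 35 animals were pooled for each sample. Of the 6 pools, 3 were kept in embryo medium (control) and 3 in the same medium with dissolved nucleotides at 10 µM (nucleotide). No strain, genotype or sex is stated in the labels, and the nucleotides are not named. In the deposited table the columns of the exposed libraries carry the name of carbon monoxide, while their library names are those of the nucleotide pools. The comparison is thus between libraries labelled nucleotide and libraries labelled control. The libraries of a group are numbered 1 to 3, and totals ran from 18690465 to 31556366 counts.

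Blood clots through a chain of proteases that circulate as inactive precursors, most of them made by hepatocytes, the main cells of the liver. Tissue factor with factor VII activates factor X, which with factor V turns prothrombin into thrombin. Thrombin cuts fibrinogen into fibrin and activates factor XIII, a transglutaminase that cross-links the fibrin strands. Antithrombin blocks thrombin and factor Xa, and plasmin, made from plasminogen, dissolves the clot. Zebrafish have most of these factors, several of them as duplicated genes.

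f13a1a.1, which codes for the factor XIII A subunit, was almost undetected in the control pools and clearly present in the nucleotide pools, while the log2 fold changes of the other 9 genes lay between -0.17 and 0.26. Its counts were 0, 8 and 7 in control libraries 1, 2 and 3. In nucleotide libraries 1, 2 and 3 they were 786, 1000 and 194. The count of 0 in control library 1 allows up to 3 counts, or 0.128 CPM (counts scaled by library total and composition to a common total), for counting error only. The groups did not overlap, and the lowest nucleotide library stood 16.2-fold above the highest control library. The mean normalised level of the control pools was 0.236 ± 0.213 CPM and that of the nucleotide pools 24.8 ± 16.9 CPM (SD, n = 3 each). The nucleotide pools themselves were far apart, at 27.4, 40.3 and 6.74 CPM, a 5.97-fold range between library 2 and library 3. The fitted log2 fold change was 6.74 ± 0.90 (SE), or 107-fold with a 95% interval of 25.3 to 453. In a pool of whole animals, more cells with the RNA, more RNA per cell and a few animals with a high level cannot be told apart.

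In edgeR's quasi-likelihood test, at an adjusted p under 0.05, f13a1a.1 was the only 1 of the 10 genes called, against 0.99% of all 13336 tested genes. Since the gene was picked from this comparison, nothing follows from that count. All 10 genes passed the filter on low counts, f13a1a.1 through its nucleotide libraries. Its call was lost without control library 1, 2 or 3, where its log2 fold change was 6.13, 7.35 and 7.00. The share of genes whose levels did not overlap between the groups was 21.4% of all tested genes, and 2 of the 10 were among them, f13a1a.1 and f9b, both higher in the nucleotide pools. With the replicate number as a block, 2 of the 10 were called, f13a1a.1 and fgg, both higher, against 19.1% of all tested genes. In the authors' deposited table, 0 of the 10 genes had an adjusted p under 0.05, against 4.12% of all genes with a value. In that table f13a1a.1 has a log2 fold change of 0.231, far below the fitted value of 6.74, and the cause of this difference was not tested.

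**Figure D1:**
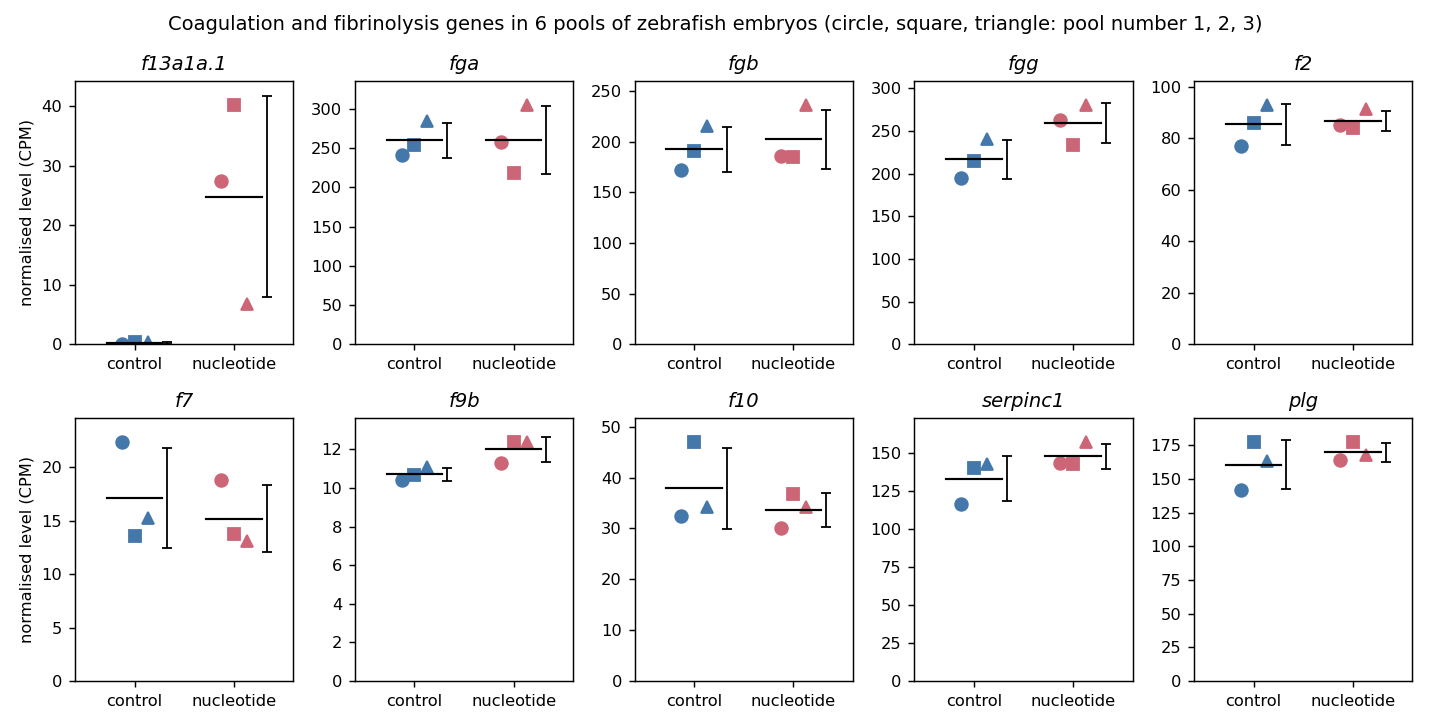
Normalised levels in CPM (vertical axes, from 0) of the 10 genes in each library, by group. Symbols show the library number, the horizontal line the mean and the bar beside it the SD over 3 pools. f13a1a.1 is near 0 in all 3 control pools and between 6.74 and 40.3 CPM in the nucleotide pools, whereas f9b is the only other gene whose groups do not overlap.

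The name of f13a1a.1 marks it as the first of a tandem pair. In the gene order of the GRCz12tu assembly its partner f13a1a.2 lies close by, with the gene ly86 between them. f13a1a.2 was not matched in the count table, so no separate level of it is given. How reads matching both copies were counted is not given in the labels, so the level of f13a1a.1 is uncertain to that extent. Of the 5 protein-coding genes on each side, 3 were matched in the count table. In edgeR 0 of them passed, against 0.99% of all tested genes. The nearest, nrn1a, a neuritin gene, had 655, 550 and 688 counts in the control group, against 805, 720 and 828 in the exposed libraries, with a log2 fold change of 0.01 ± 0.08 (SE). fars2, for a mitochondrial phenylalanine tRNA synthetase, had a log2 fold change of -0.22 ± 0.14 (SE), and cyb5a, for cytochrome b5, one of 0.33 ± 0.24 (SE) and rose only with the replicate block (adjusted p = 0.00897). These 3 were named after their values were seen. No difference of the size seen in f13a1a.1 was measured in these 3 neighbours.

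The related gene f13a1b, the other duplicate of the factor XIII A subunit, was measured at a steady level, at 39.2, 37.7 and 33.0 CPM in control and 28.2, 37.2 and 37.0 CPM in nucleotide pools. Its log2 fold change was -0.10 ± 0.13 (SE), and its groups overlapped. It is given as a relative of f13a1a.1, named after its values were seen. Of 3 tested members of the wider transglutaminase family, 0 passed in edgeR, against 0.99% of all tested genes, and 0 in DESeq2, against 3.79%. Only 1, tgm2b (a tissue transglutaminase gene), was lower at an unadjusted p under 0.05, against 14.5% of all tested genes in either direction. tgm2b, also named after its values were seen, stood at 21.3, 22.6 and 28.7 CPM in control and 18.3, 16.7 and 20.4 CPM after exposure. Its log2 fold change was -0.39 ± 0.14 (SE, edgeR adjusted p = 0.267). With the replicate block it fell, with an adjusted p of 0.012.

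The 3 fibrinogen genes code for the alpha, beta and gamma chains that assemble into the fibrinogen molecule. fga, for the alpha chain, was at 241, 254 and 284 CPM in control and 258, 218 and 305 CPM in nucleotide pools. The groups overlapped completely, with the lowest and the highest value both in the nucleotide group. Its log2 fold change was 0.00 ± 0.14 (SE), with a 95% interval of -0.32 to 0.33. fgb, for the beta chain, was at 172, 190 and 215 CPM in control and 185, 185 and 236 CPM in nucleotide pools. Its log2 fold change was 0.07 ± 0.14 (SE), again with overlapping groups. fgg, for the gamma chain, was at 195, 215 and 240 CPM in control and 263, 234 and 281 CPM in nucleotide pools. Only control library 3 reached above the lowest nucleotide library, and the log2 fold change was 0.26 ± 0.12 (SE), with an interval of -0.02 to 0.53. With the replicate block it was 0.26 ± 0.07 (SE), and it was higher in the nucleotide library of all 3 numbers, by 0.43, 0.12 and 0.22 on the log2 scale. A level in CPM is not per length of transcript, so levels of different genes are not compared.

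A ratio of counts within a library does not depend on how libraries are scaled to each other. The ratio of fgg to fga counts was 0.809, 0.845 and 0.845 in control libraries 1, 2 and 3, against 1.02, 1.07 and 0.920 in nucleotide libraries 1, 2 and 3. The ratio of fgg to fgb was 1.14, 1.13 and 1.12 in the former and 1.42, 1.26 and 1.19 in the latter. Both ratios were higher in every nucleotide library than in any control library. The ratio of fgb to fga, at 0.711, 0.749 and 0.758 against 0.720, 0.849 and 0.775, overlapped. Outside the fibrinogen genes, the ratio of serpinc1 to f2 did not overlap either, at 1.51, 1.63 and 1.54 against 1.69, 1.70 and 1.72. The ratios of f7, f9b, f10 and plg to f2 and of f7 to f10 overlapped. Levels of single genes did not overlap in 21.4% of all tested genes, and the share among ratios of other genes was not measured. Among the control libraries the ratio of fgg to fgb varied little, with a mean of 1.13 ± 0.0113 (SD, n = 3), against 1.29 ± 0.119 (SD, n = 3) in the nucleotide libraries. A ratio shows unequal levels and not which of the chains differed.

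**Figure D2:**
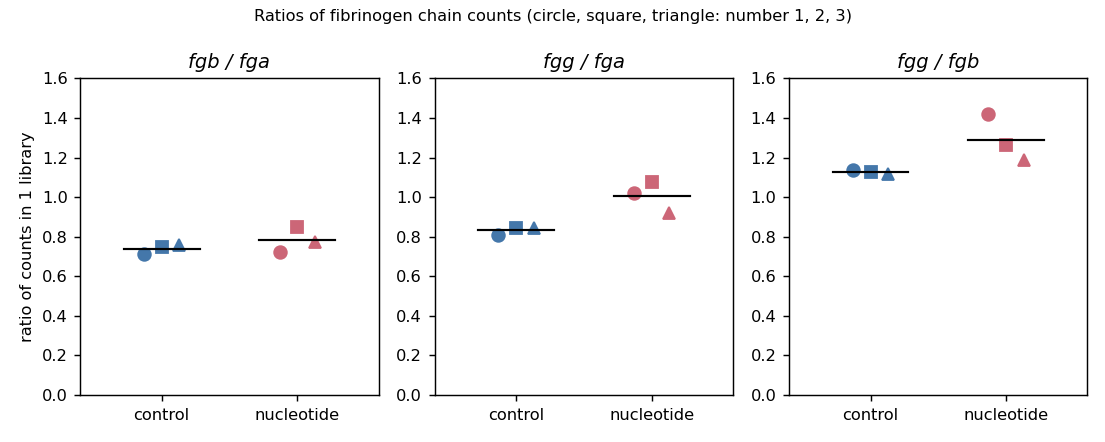
Ratios of the counts of fibrinogen chain genes within each library (vertical axis, from 0), by group, with the library number as symbol and the mean as a line. The ratios of fgg to fga and of fgg to fgb do not overlap between the groups, while that of fgb to fga does.

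f2 codes for prothrombin, the precursor of thrombin. It was at 77.2, 86.2 and 93.0 CPM in control and 85.1, 84.0 and 91.4 CPM in nucleotide pools. The nucleotide values lay within the control range, and the log2 fold change was 0.02 ± 0.10 (SE), with an interval of -0.20 to 0.25. f9b, a zebrafish paralogue named for factor IX, the protease that with factor VIII activates factor X, was at 10.4, 10.7 and 11.1 CPM in control and 11.3, 12.4 and 12.4 CPM in nucleotide pools. Its groups did not overlap, but the closest libraries were at 11.1 and 11.3 CPM, and the log2 fold change was 0.16 ± 0.12 (SE), with an interval of -0.10 to 0.43. f9b was higher in the nucleotide library of each number, by 0.12, 0.21 and 0.16 on the log2 scale.

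f7, for the factor VII protease that starts clotting with tissue factor, was at 22.4, 13.6 and 15.3 CPM in control and 18.8, 13.8 and 13.1 CPM in nucleotide pools. Library 1 was the highest in both groups, and the difference between numbers was larger than that between groups. The same held for fga, fgb, f2, f10, serpinc1 and plg, but not for fgg, f9b or f13a1a.1. The log2 fold change of f7 was -0.17 ± 0.22 (SE), with an interval of -0.68 to 0.34. Without control library 1 it was 0.08. f10, for factor X, the protease that makes thrombin, was at 32.5, 47.1 and 34.1 CPM in control and 30.0, 36.7 and 34.1 CPM in nucleotide pools. Library 2 was the highest in both groups, and the log2 fold change was -0.17 ± 0.16 (SE), with an interval of -0.53 to 0.19. Without control library 2 it was 0.01.

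serpinc1 codes for antithrombin, the inhibitor of thrombin and factor Xa. It was at 116, 140 and 143 CPM in control and 144, 142 and 157 CPM in nucleotide pools. Control library 1 stood below the rest, the highest control library reached into the nucleotide range, and the log2 fold change was 0.15 ± 0.11 (SE), with an interval of -0.10 to 0.40. plg, for plasminogen, was at 142, 177 and 163 CPM in control and 164, 178 and 168 CPM in nucleotide pools. Its groups overlapped, with a log2 fold change of 0.08 ± 0.11 (SE) and an interval of -0.17 to 0.33. Over the 9 genes other than f13a1a.1 the median log2 fold change was 0.07, with a range from -0.17 to 0.26, beside a median of -0.01 over all 13336 tested genes. Positive values were found for 7 of the 9. With library totals in place of the trimmed mean of M values (TMM, the scaling used throughout), the median of all genes lay at -0.14, and fga, fgb, f2 and plg had values below 0.

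Between libraries of the same group the liver-made factors did not all vary together. Expressed as the difference of log2 CPM from the mean of its own group, fga was at -0.10, -0.03 and 0.13 in the control group and close to 0, -0.24 and 0.24 in the nucleotide group. fgb, fgg, f2 and serpinc1 had their highest value in library 3 of both groups, as fga had. Across the 6 libraries these deviations correlated at 0.88 between fga and fgb, 0.91 between fga and fgg and 0.96 between f2 and serpinc1. f7 went another way, with deviations of 0.42, -0.30 and -0.13 in the control group and 0.32, -0.12 and -0.20 in the nucleotide group. Its deviations correlated at -0.83 with serpinc1 and at -0.87 with plg, and those of f10 at 0.86 with plg. These values describe 6 libraries that share their scaling, and deviations within a group sum to 0. The summed level of the skeletal muscle markers was highest in library 3 of both groups as well, although single markers such as myhz2, a myosin heavy chain gene lowest in control library 3, were not. myhz2 was named after its values were seen, and the part of the muscle markers in this pattern was not tested.

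In the gene order of GRCz12tu, f7 and f10 lie in a row of related genes. The part of it that was measured runs from zgc:163025, whose current symbol is f7l, through f7 and f7i to f10. The gene after f10, prozb, was not matched in the count table. zgc:163025 was at 8.39, 5.13 and 5.14 CPM in control and 7.54, 4.67 and 3.65 CPM in nucleotide pools, highest in library 1 of both groups like f7. f7i was at 12.2, 5.55 and 8.82 CPM in control and 7.64, 4.27 and 6.94 CPM in nucleotide pools, again highest in library 1 and lowest in library 2 of both groups. f10, which follows f7i, was highest in library 2. zgc:163025 was named after its values were seen. fga and fgb are neighbours as well, with 1 gene between them, whereas fgg lies elsewhere and is not among the 5 nearest genes on either side.

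**Figure D3:**
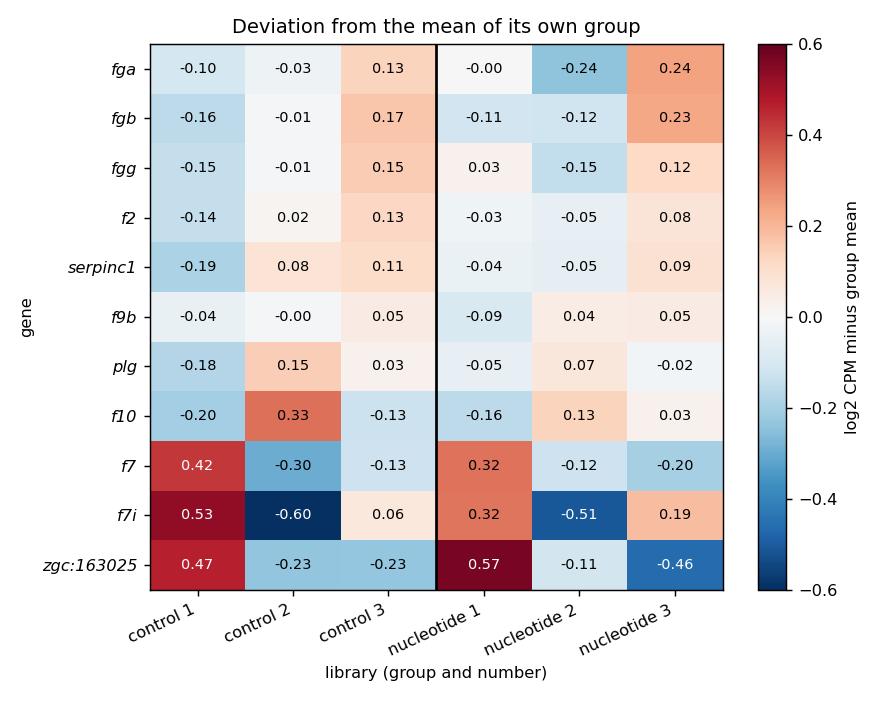
Difference of log2 CPM from the mean of the same group (colour and printed value) for the 9 factor genes other than f13a1a.1 and for f7i and zgc:163025 (rows) in each library (columns). The fibrinogen genes, f2 and serpinc1 are highest in library 3 of both groups, and f7, f7i and zgc:163025 are highest in library 1 of both.

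The rest of the pathway was read from 4 lists of other coagulation factors, anticoagulants, fibrinolysis genes and vitamin K cycle and secretion genes. Of the 48 genes listed, 30 were found in the table and 29 tested. In edgeR 0 rose and 0 fell, against 0.99% of all tested genes. At an unadjusted p under 0.05 there were 1 higher and 1 lower, against 14.5% of all tested genes. DESeq2 called 2, vkorc1l1 higher and pros1 lower, against 3.79% of all genes with a value. With the replicate block 3 rose and 2 fell, against 19.1% of all tested genes. The median log2 fold change of the 29 was 0.06, beside -0.01 over all tested genes. The groups did not overlap for 2 higher and 1 lower of the 29, against 21.4% of all tested genes in either direction.

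pros1, for protein S, the cofactor of activated protein C in shutting down thrombin formation, was at 61.0, 64.3 and 66.7 CPM in control and 47.4, 48.5 and 46.5 CPM in nucleotide pools. All 3 nucleotide pools stood below all 3 control pools, and the log2 fold change was -0.43 ± 0.08 (SE, edgeR adjusted p = 0.065). It fell with the replicate block (adjusted p = 0.00116), in DESeq2 (adjusted p = 0.00287) and with library totals in place of TMM (edgeR adjusted p = 0.0419). With library totals the median of all genes was itself at -0.14. pros1 did not pass with upper quartile scaling (edgeR adjusted p = 0.058), with DESeq2 size factors (0.0645) or without the filter (0.0659). Nor did it pass with any 1 library left out (edgeR adjusted p from 0.1707 to 0.2035). vkorc1l1, a relative of the enzyme that recycles vitamin K, which the liver needs to finish prothrombin and factors VII, IX and X, was at 6.73, 6.27 and 6.02 CPM in control and 10.1, 9.82 and 9.93 CPM in nucleotide pools. Its groups did not overlap either, with a log2 fold change of 0.65 ± 0.13 (SE, edgeR adjusted p = 0.066). It rose with the replicate block (adjusted p = 0.00437) and in DESeq2 (adjusted p = 0.00604). vkorc1l1 did not pass with library totals (edgeR adjusted p = 0.132), with the other scalings or without the filter. Nor did it pass with any 1 library left out (edgeR adjusted p from 0.1809 to 0.2259).

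Among the other coagulation factors and cofactors, 0 of 8 tested genes passed in edgeR, 0 in DESeq2 and 0 at an unadjusted p under 0.05. Over all genes the shares were 0.99%, 3.79% and 14.5%, in that order. The smallest p belonged to f7i, with a log2 fold change of -0.50 ± 0.31 (SE), which fell only with the replicate block (adjusted p = 0.0281). f3a, a gene for tissue factor, the trigger of clotting, had a log2 fold change of 0.17 ± 0.13 (SE). f5, for the factor V cofactor of factor Xa, had one of 0.20 ± 0.18 (SE), and vwf, for the von Willebrand factor that tethers thrombocytes, one of -0.17 ± 0.16 (SE). None of these intervals left out 0.

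Of the 7 tested anticoagulant genes, pros1 included, 0 passed in edgeR, against 0.99% of all tested genes. tfpia, for the tissue factor pathway inhibitor, had a log2 fold change of 0.22 ± 0.13 (SE) and rose only with the replicate block (adjusted p = 0.0459). proza, named for protein Z, was at 0.13 ± 0.11 (SE), and serpind1, for heparin cofactor II, at -0.14 ± 0.13 (SE). Of the 10 tested fibrinolysis genes 0 passed in edgeR, 0 in DESeq2 and 0 at an unadjusted p under 0.05, against 0.99%, 3.79% and 14.5% over all genes. anxa2a, for annexin A2, a cell surface site of plasmin formation, was at 68.9, 75.7 and 99.0 CPM in control and 79.4, 100.3 and 143 CPM in nucleotide pools. It was higher in the nucleotide library of each number although the groups overlapped, with a log2 fold change of 0.41 ± 0.22 (SE), and it rose with the replicate block (adjusted p = 0.00409). plgrkt, a plasminogen receptor gene, had a log2 fold change of 0.26 ± 0.17 (SE), serpinf2b, for the plasmin inhibitor antiplasmin, one of 0.12 ± 0.09 (SE), and serpine2, for an inhibitor of thrombin and plasminogen activators, one of -0.14 ± 0.12 (SE).

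Among the 4 tested vitamin K cycle and secretion genes, mcfd2, for a cargo receptor subunit that carries factors V and VIII out of the endoplasmic reticulum, had a log2 fold change of 0.20 ± 0.11 (SE). Its groups did not overlap, as those of vkorc1l1 did not, against 21.4% of all tested genes without overlap. sec24d, a coat protein gene of the vesicles that leave the endoplasmic reticulum, was at 0.16 ± 0.11 (SE), and surf4l, a cargo receptor gene, at 0.33 ± 0.33 (SE). 0 of the 4 passed in edgeR, against 0.99% of all tested genes, with vkorc1l1 the only 1 at an unadjusted p under 0.05, against 14.5%.

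**Figure D4:**
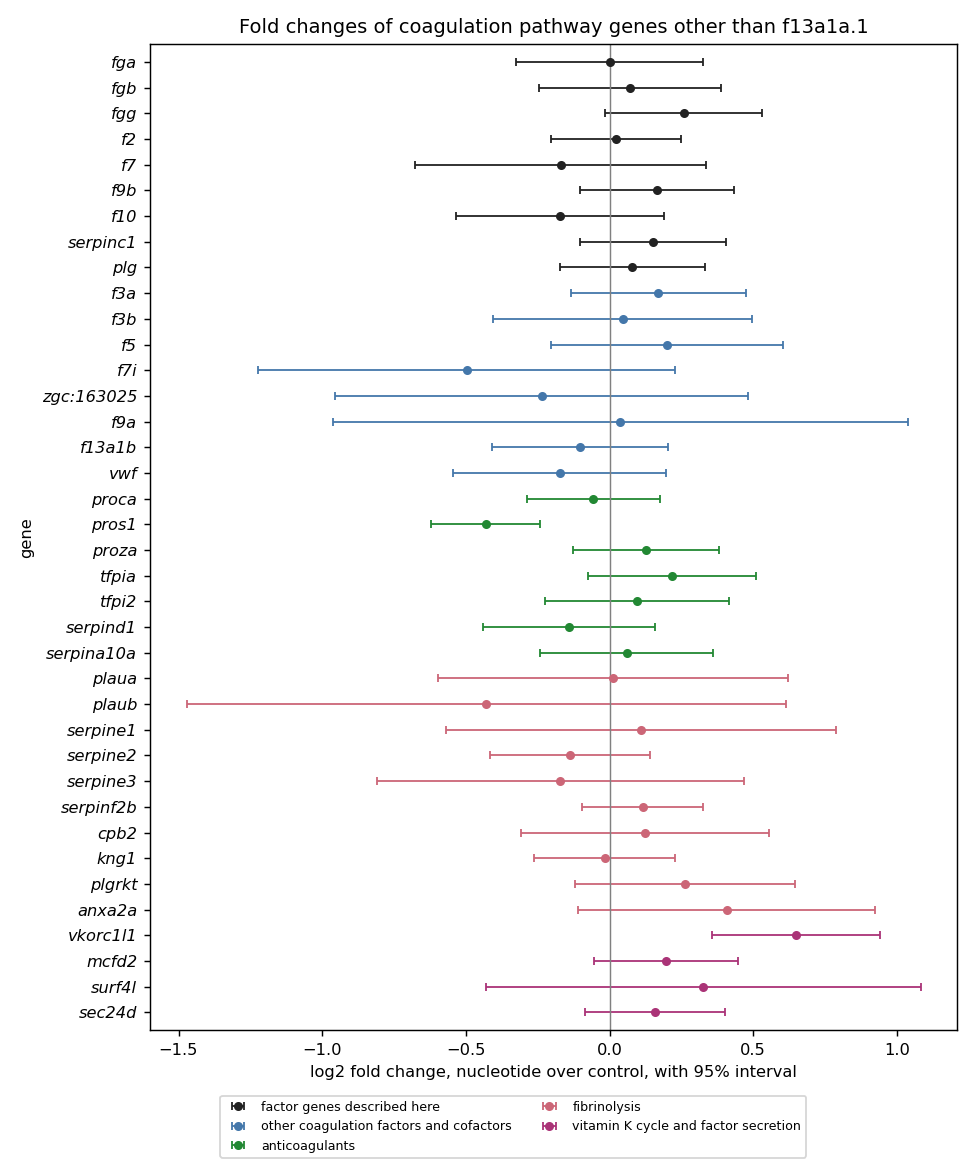
Log2 fold changes of nucleotide over control pools with 95% intervals (horizontal axis) for the 9 factor genes other than f13a1a.1 and the 29 tested genes of the rest of the pathway, coloured by list. Only the intervals of pros1, at -0.43, and vkorc1l1, at 0.65, leave out 0.

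Markers of the cells that make clotting proteins were read beside these values. Of 26 tested hepatocyte markers 0 passed in edgeR, against 0.99% of all tested genes, and 0 in DESeq2, against 3.79%. At an unadjusted p under 0.05, 3 were higher, against 14.5%, and the median log2 fold change was 0.11. Their summed level was 8332 to 9093 CPM in control and 8576 to 9649 CPM in nucleotide pools, so the groups overlapped, and 1 marker found in the table, serpina7, was at 0 in all libraries. In mammals factor XIII A is made by megakaryocytes and macrophages rather than by hepatocytes. Of 10 tested thrombocyte markers 0 passed in edgeR, 0 in DESeq2 and 0 at an unadjusted p under 0.05. Over all genes the shares were 0.99%, 3.79% and 14.5%, in that order. The thrombocyte markers had a median of -0.15 and a summed level of 134 to 148 CPM in control and 129 to 138 CPM in nucleotide pools. Of 15 tested macrophage and neutrophil markers 0 passed in edgeR, against 0.99% of all tested genes, and DESeq2 called 1 higher, against 3.79%. At an unadjusted p under 0.05, 5 were higher, and the median was 0.21. Their summed level was 433 to 788 CPM in control and 473 to 713 CPM in nucleotide pools, and 0 markers of these last lists that were in the table were at 0 in all libraries. mpx, a neutrophil gene named after its values were seen, made up an uneven part of that sum. It stood at 368 of 788 CPM in control library 1 and at 52.2 of 433 CPM in control library 3. The share of all tested genes at that unadjusted p was 14.5%. With the replicate block 6 of the 15 rose and 1 fell, against 19.1% of all tested genes called in either direction. The groups did not overlap for 3 higher and 1 lower of the 15, against 21.4% of all tested genes. The part of any of these cells in the level of f13a1a.1 was not tested.

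Signals of the acute phase, the inflammatory state in which mammalian liver makes more fibrinogen, were measured with 11 tested genes. In edgeR 0 passed, against 0.99% of all tested genes, and 1 was higher at an unadjusted p under 0.05, against 14.5%. DESeq2 called 0, against 3.79%. The replicate block called 2, both higher, against 19.1% of all tested genes called in either direction. The erythroid and enterocyte lists, with 7 and 10 tested genes, had 0 passing in edgeR, 0 in DESeq2 and 0 at an unadjusted p under 0.05. Over all genes those shares were 0.99%, 3.79% and 14.5%, in that order. Of 21 tested skeletal muscle markers 2 rose in edgeR, against 0.99% of all tested genes, 8 in DESeq2, against 3.79%, and 14 with the replicate block, against 19.1%. The 2 that passed in edgeR were the actin genes actc1b (log2 fold change 5.15 ± 0.32 SE, edgeR adjusted p = 0.000211) and acta1a (1.71 ± 0.28 SE, edgeR adjusted p = 0.0338). Only actc1b was called without control library 1 or 2 or nucleotide library 2 or 3. The summed level of the muscle list was 39580 to 49010 CPM in control and 53950 to 91280 CPM in nucleotide pools, the highest value being nucleotide library 3. That library was also the lowest of its group for f13a1a.1 and the highest for fga, fgb and fgg. Without it the log2 fold change of f13a1a.1 was 7.20, and those of fga, fgb and fgg were -0.13, -0.05 and 0.20.

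The genes whose levels followed f13a1a.1 most closely over the 6 libraries, by Pearson correlation of log2 CPM among 11384 genes, were snrpa, gtf2e2, hsd17b14, erh and yaf2, at 0.99 each. snrpa codes for a protein of the U1 splicing particle and gtf2e2 for a subunit of the transcription factor TFIIE. Their differences were small, as for snrpa with 41.2, 46.0 and 44.3 CPM in control and 63.0, 61.5 and 56.1 CPM in nucleotide pools and a difference far smaller than that of f13a1a.1. The groups did not overlap in either gene, but the order within them differed, since snrpa was highest in nucleotide library 1 and f13a1a.1 in nucleotide library 2. By deviations from the group means, the closest were cflara, dnal4b, b4galt5, kcnh1b and ropn1l, at 0.995 to 0.9996. Both rankings rest in part on control counts of 0, 8 and 7 for f13a1a.1, where counting error and the prior count weigh heavily. They also take the highest values of 11384 genes, and shared control of these genes was not tested. The ranking by level favours genes whose groups lie apart, since f13a1a.1 was chosen for its group difference. For the median of the 3 fibrinogen genes the closest by level, among 11382 genes, were arf6b, ufm1, tefa, usb1 and churc1, at 0.987 to 0.9985. By deviations they were xrcc5, hnrnpabb, pif1, bet1 and gna12a, at 0.99 each. By the same deviations f2 correlated with the fibrinogen median at 0.88 and stood at place 639, serpinc1 at 0.81 and place 1176, and f7 at -0.46 and place 8046. Many genes outside the pathway thus followed the fibrinogen genes over 6 libraries as closely as their functional partners did, or more so. These are descriptions over 6 libraries that share their scaling.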

How the data were processed

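Whole-embryo RNA of 3 control and 3 nucleotide pools was read from the 1 table deposited by the authors, which holds raw counts for each gene in each library. Per the submitters' processing notes, the tools were TopHat2, HTSeq and DESeq2 with the build GRCz10. The annotation, the strand setting and the handling of reads with several matches were not given in the sources used here. Also deposited by the authors were a mean normalized count (a signal), a log2 fold change with its error, a Wald score and p-values, per the file headers. The deposited log2 fold change of f13a1a.1, 0.231, is far smaller than the 6.74 fitted here. Those of the other 9 factor genes had the same sign as the fitted values and lay closer to them. For fgg, 0.23 was deposited and 0.26 fitted. The cause of the difference in f13a1a.1 was not tested.

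Columns were matched to samples by library name. After 69 repeated rows were dropped, 14612 genes remained, of which 13336 passed filterByExpr (minimum count 10, minimum total 15). Groups were compared with the quasi-likelihood F test of edgeR 4.0.16 (2-sided, TMM scaling, R 4.3.3, Benjamini-Hochberg adjustment, threshold 0.05). SE is the size of the log2 fold change over the square root of F, and 95% intervals use the test's degrees of freedom. CPM use TMM-scaled totals, and log2 CPM a prior count of 2. Alternatives were DESeq2 1.42.0, other scalings, no filter, the replicate number as a block, and each library left out. The steps were tested on simulated data with the same dispersion for every gene and no effect of the replicate number. That test therefore does not cover the shared deviations of same-numbered libraries. Whether the pools come from separate clutches is not in the labels, and p-values cover only the spread between these pools.

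The numbers 1 to 3 are not explained in the labels. Same-numbered libraries of the groups deviated together: across genes, their differences from the group mean correlated at 0.546, 0.625 and 0.617. Each value being over 0.1, the numbers were taken to mark pairs, from the counts alone. All blocked p-values rest on this pairing. The library names close with the same digit in both groups, except for number 1, where the digits differ. The main values still come from the fit without the block, and the blocked value is given where it changes a call.

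The members and lists were chosen with earlier results of these data known. Of 184 list entries, 134 were matched by symbol and 8 by the current symbol of their gene number (RefSeq names of GRCz12tu). Genes named are all members, list genes past the threshold, the 4 genes of smallest p in each list of the rest of the pathway, and the 5 genes most like f13a1a.1 or the fibrinogen median. Others are said to be named after their values were seen.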

Additional observations from a re-analysis of the deposited data

How the results depend on the processing

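The count of called genes moved with the test, from 132 in edgeR to 494 in DESeq2 (398 higher, 96 lower) and 2550 with the replicate block (1432 higher, 1118 lower), and lay between 39 and 80 with 1 library left out. With library totals 82.7% of calls were higher, against 94.7% with TMM. Of the 10 factor genes 2 were called with the block and 0 to 1 with 1 library left out. Of the rest of the pathway 1 was called with library totals, 2 in DESeq2 and 5 with the block. With the block, which called 19.1% of all tested genes, 1 of 3 transglutaminase, 2 of 11 acute phase, 5 of 26 hepatocyte, 1 of 10 thrombocyte, 7 of 15 macrophage and neutrophil, 14 of 21 muscle and 2 of 7 erythroid genes were called. DESeq2 called 1 of 15 macrophage and neutrophil and 8 of 21 muscle genes, against 3.79% of all genes, and 1 to 2 muscle genes were called with 1 library left out. The block changed no other call among the genes named than those given beside them, that of myhz2 and those of snrpa, gtf2e2, erh, yaf2, tefa and gna12a. myhz2 rose with the block (edgeR adjusted p = 0.00122, against 0.0693 without it). snrpa and the genes listed after it are described without a test. Only some of the list genes, and the neighbours of f13a1a.1, were followed over every setting, so turns of sign in other list genes are not listed here. Among those followed that did not pass, the sign turned for serpinf2b with library totals (-0.0118) and for nrn1a with upper quartile scaling (-0.0147) or library totals (-0.114). With 1 library left out it turned for f13a1b (-0.172 to 0.0242, above 0 without nucleotide library 1), zgc:163025 (-0.579 to 0.0425, above 0 without control library 1) and nrn1a (-0.00073 to 0.0301, below 0 without control library 1). Values near 0 of genes described without a test turned as well: with library totals for fga, fgb, f2, plg, xrcc5 (-0.0778), hnrnpabb (-0.00231) and bet1 (-0.124), with upper quartile scaling for fga, f2 and bet1, with the block for fga, and with 1 library left out for fga, fgb, f2, f7, f10, plg, cflara, dnal4b, ropn1l, xrcc5, hnrnpabb and bet1. The cause of these moves was not tested beyond the fewer samples that a left-out library leaves. The log2 fold change of f13a1a.1 lay between 6.13 and 7.35 over all settings. Counts of 0 to 8 in the control libraries limit how exactly its fold can be known.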

Other observations

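Of the tested genes, 21 had at most 10 counts in every control library, f13a1a.1 among them. In the other 20 the highest nucleotide count was between 12 and 1863, with a median of 22.5. Genes this low in control pass the filter mainly through their nucleotide libraries, so calls among them are no test of the exposure. Of the 20, 0 were called in edgeR, against 0.99% of all tested genes. DESeq2 called 0 as well, but not all of the 20 had an adjusted p there, so that 0 is not set beside the 3.79% of genes with a value. At an unadjusted p under 0.05 there were 8, against 14.5%, and 6 were called with the replicate block, against 19.1%. The highest nucleotide count belonged to rn7sk, the small nuclear RNA that holds the elongation factor P-TEFb inactive, with 0, 0 and 3 counts in the control group against 62, 1863 and 41 after exposure. edgeR called it with the replicate block and not without, which is no test of the exposure for the reason given above, and DESeq2 gave it no adjusted p. Nucleotide library 2, the highest for f13a1a.1, was the highest for rn7sk too. The same library was the highest for il1b, the gene of the inflammatory cytokine interleukin 1 beta, at 65.1 CPM against 7.33 to 14.8 CPM in the other 5 libraries. The neutrophil gene mpx stood at similar levels in same-numbered libraries of the groups, at 368, 164 and 52.2 CPM in control libraries 1, 2 and 3 and 249, 168 and 52.0 CPM in nucleotide libraries 1, 2 and 3. These genes were named after their values were seen.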
